A study of Mus musculus with 15 samples.

Results

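The 7 long noncoding RNAs known from neural cells, Miat, Meg3, Rian, Malat1, Neat1, Snhg11 and Kantr, were followed across Gli1+ GFAP+ astroglia sorted from 3 regions of the adult mouse brain. They are 7 of the 18193 genes that the array names, and 32 of its 45101 probe sets carry their symbols. One probe set per gene was chosen by its highest mean over the 15 arrays, and the 25 further probe sets were read beside it. The choice of probe set used only that overall mean, not the difference between regions, but the 7 genes were picked with earlier results of these data in view. Miat had already been seen to be higher in the subventricular zone, so its difference is given as a description and not as independent evidence.

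The study asked which genes distinguish Shh-responding astroglia of the forebrain from those of the cerebellum. The groups were the subventricular zone (SVZ) with 5 arrays, the hippocampus with 5 arrays and the cerebellum with 5 arrays. All 3 groups came from male mice of 6 to 8 weeks with the genotype Gli1-CreER;GFAP-GFP;R26tdTomato, which received 2 doses of 10 mg tamoxifen. Tamoxifen activates a Cre recombinase made under Gli1, a target gene of Shh signalling, and the recombined cells and their progeny then carry tdTomato. Cells positive for tdTomato and for GFP driven by the GFAP promoter were sorted 3 weeks later. Each array held the amplified RNA of 10 to 12 pooled mice, so the spread between arrays is a spread between pools, and no group was untreated or without the labels. In sorted pools, fewer cells of a type and less RNA per cell cannot be told apart.

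Long noncoding RNAs are transcripts that act as RNA rather than through a protein, and many stay in the nucleus. Miat, also called Gomafu, collects in nuclear domains and binds splicing factors, and it is known from neural progenitors, retina and subsets of neurons. Malat1 resides in nuclear speckles, Neat1 is the scaffold of paraspeckles, and Meg3 and Rian are transcribed from the maternal copy of the imprinted Dlk1-Dio3 domain. Rian and Snhg11 host small nucleolar RNAs in their introns, and Kantr is named for its place next to Kdm5c, a histone demethylase gene on the X chromosome.

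Levels are log2 signal of single probe sets, so a difference of 1 is a factor of 2, and levels of different probe sets cannot be compared. The base of 2 was read from the range of the values and is not stated with them. Array medians over all probe sets lay between 1.2 and 1.31 in SVZ, 1.2 and 1.27 in hippocampus and 1.12 and 1.17 in cerebellum. Medians this low are unusual for RMA, and factors given for a gene rest on this scale. A level near those medians is close to what most probe sets show, and the files give no detection call. The 5 cerebellum arrays resembled each other more, with median correlations within the region of 0.942 to 0.96, against 0.785 to 0.852 in SVZ and 0.801 to 0.827 in hippocampus. Mean levels of the 12 spike-in probe sets spanned 11.04 to 13.1 in SVZ, 11.51 to 12.85 in hippocampus and 8.49 to 12.34 in cerebellum. All 15 measured astrocyte markers had a mean above 3 in every region, but not all at the same level. In SVZ against cerebellum 1 was called higher and 3 lower, and in hippocampus against cerebellum 4 were called lower. S100b, a calcium-binding protein, fell by 3.41 in SVZ (limma adjusted p = 0.000254) and fell by 3.67 in hippocampus (limma adjusted p = 0.000118), both against cerebellum. The part of these differences in those of the 7 RNAs was not tested.

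Among the 7 RNAs, Miat was higher and Kantr lower in SVZ than in cerebellum. Kantr was also lower in SVZ than in hippocampus, while no member passed the test between hippocampus and cerebellum. Calls use limma, with Benjamini-Hochberg adjustment over all 18193 genes and a threshold of 0.05. Over all genes, 1.03% were called higher and 4.47% lower in SVZ against cerebellum, beside 1 higher and 1 lower among the 7 members. Between hippocampus and cerebellum 0.808% of all genes were called higher and 3.97% lower, and none of the 7, of which 3 had an unadjusted p under 0.05, as did 20.1% of all genes. Between SVZ and hippocampus 0.0165% of all genes were called higher and 0.0055% lower, the second share being Kantr alone. The medians of the 7 differences were 0.19, 0.34 and -0.1 in SVZ against cerebellum, hippocampus against cerebellum and SVZ against hippocampus, against 0.07, 0.07 and 0 over all genes. Over the 4816 genes with a mean above 3 the medians were -0.72, -0.7 and 0.06. Both comparisons with cerebellum share the same 5 cerebellum arrays.

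**Figure D1:**
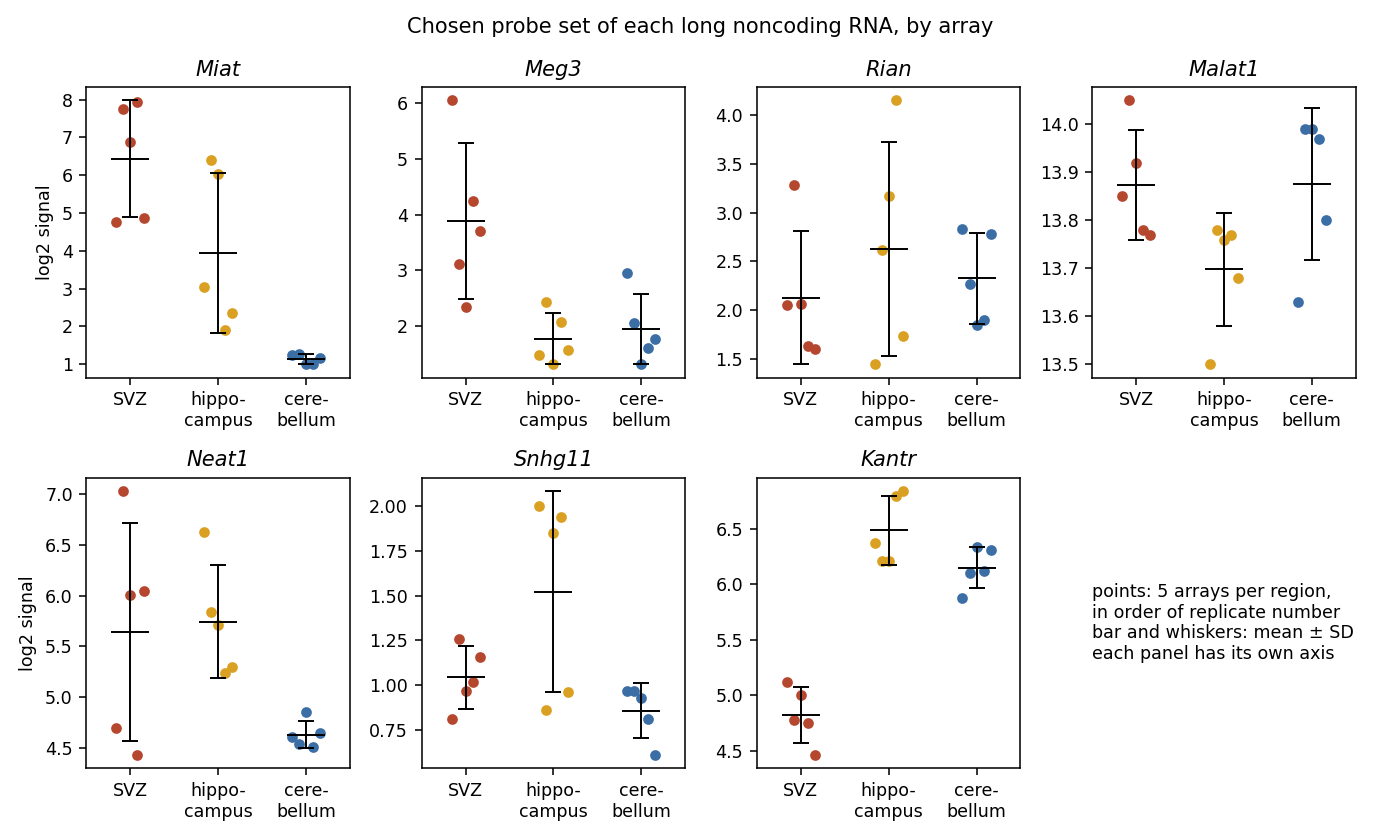
Log2 signal of the chosen probe set of each of the 7 RNAs on every array, with SVZ, hippocampus and cerebellum from left to right, and with bar and whiskers for the mean ± SD. Miat in SVZ spans 4.77 to 7.95 while cerebellum stays between 0.99 and 1.27, and Kantr in SVZ lies below both other regions.

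The promoters of the RNAs that differed are shown first, to give the annotated start of each, together with that of Malat1, whose chosen probe set had the narrowest interval in SVZ against cerebellum. No probe set was placed on a transcript, so a window need not belong to the transcript behind the signal. They come from RefSeq on GRCm38.p6 and run from 250 bases before to 50 bases after the transcript start, 5′ to 3′ on the gene's strand. Capitals mark matches, on either strand, to the GLI core ACCACCC, the cyclic AMP response element (CRE) core TGACG, the CCAAT box CCAAT, the GC box GGGCGG and the TATA box TATAAA. The E-box CANNTG was also searched but is left in lower case. A match only says that these letters occur there, and its absence says nothing about a factor.
Miat, chr5:112228899-112229198, minus strand: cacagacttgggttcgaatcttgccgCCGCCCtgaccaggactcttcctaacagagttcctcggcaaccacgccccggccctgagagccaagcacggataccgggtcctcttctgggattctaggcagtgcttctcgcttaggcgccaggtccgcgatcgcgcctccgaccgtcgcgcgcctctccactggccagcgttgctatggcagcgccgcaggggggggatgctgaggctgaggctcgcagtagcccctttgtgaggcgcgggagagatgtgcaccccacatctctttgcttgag
Kantr, chrX:152327444-152327743, minus strand: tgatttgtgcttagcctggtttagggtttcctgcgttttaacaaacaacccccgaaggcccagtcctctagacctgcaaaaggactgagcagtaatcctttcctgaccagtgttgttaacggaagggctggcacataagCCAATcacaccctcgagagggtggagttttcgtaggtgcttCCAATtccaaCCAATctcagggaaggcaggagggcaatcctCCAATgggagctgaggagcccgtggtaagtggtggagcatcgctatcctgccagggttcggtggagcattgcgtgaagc
Malat1, chr19:5802623-5802922, minus strand: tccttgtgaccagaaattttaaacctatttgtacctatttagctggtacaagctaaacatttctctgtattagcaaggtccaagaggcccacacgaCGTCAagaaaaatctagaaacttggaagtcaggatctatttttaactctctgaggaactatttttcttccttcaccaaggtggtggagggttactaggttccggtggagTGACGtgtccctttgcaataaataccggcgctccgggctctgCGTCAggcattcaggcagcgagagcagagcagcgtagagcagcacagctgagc
The Miat window holds 1 GC box, at -224 from the start, and is 64.3% G and C. Kantr's window holds 4 CCAAT boxes, at -111, -70, -60 and -29, and no other capital. The Malat1 window holds 3 CRE cores, at -154, -45 and -3. Of 32851 mouse promoters in the same table, 35.7% had a GC box, 37.4% a CCAAT box and 20.8% a CRE core. Of the 7 RNAs, 6 had a window in the table, and Neat1 had none. The windows of Rian, Snhg11 and the second Meg3 start are not printed.

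Miat gave the widest differences of the 7. Its SVZ arrays read 4.77, 7.75, 6.87, 7.95 and 4.86, its hippocampus arrays 3.05, 6.39, 6.04, 1.9 and 2.34, and its cerebellum arrays 1.23, 1.27, 1.01, 0.99 and 1.16. Every SVZ array lay above every cerebellum array, the cerebellum arrays sat at the level of the array medians, and the hippocampus arrays split into a pair above 6 and 3 nearer the cerebellum. Miat averaged 6.44 ± 1.54 in SVZ (SD, n = 5), 3.94 ± 2.12 in hippocampus (SD, n = 5) and 1.13 ± 0.13 in cerebellum (SD, n = 5). SVZ exceeded cerebellum by 5.31 ± 0.89 (SE), with a 95% interval of 3.4 to 7.22 on the log2 scale (limma adjusted p = 0.00284). No fold is given, since Miat in cerebellum was not above the level of most probe sets. This call held in all 27 alternatives, where the difference ranged over 3.38 to 6.04.

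Miat in hippocampus exceeded cerebellum by 2.81 ± 0.89 (SE), which did not pass the adjusted test (limma adjusted p = 0.0921). It passed in 3 of 27 alternatives, with dim probe sets left out (adjusted p = 0.0372), with the mean of all probe sets (adjusted p = 0.0494) and with array weights (adjusted p = 0.0378). Every hippocampus array nevertheless lay above every cerebellum array, as was the case for 7.98% of all genes. The study's own rule asks for a change above 4-fold and an unadjusted p below 0.01, and by it Miat is counted in hippocampus against cerebellum beside 2.87% of all genes. SVZ and hippocampus overlapped, with a difference of 2.5 ± 0.89 (SE, limma adjusted p = 0.563). Only Miat among the members met the study's rule in SVZ against cerebellum, beside 3.21% of all genes.

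The further Miat probe set, 1458903_at, stayed nearer the array medians. It read 4.51, 2.51, 1.24, 1.41 and 2.13 in SVZ, 1.13, 0.75, 1.15, 1.24 and 0.87 in hippocampus and 1.07, 1.01, 0.72, 0.74 and 1.04 in cerebellum. All SVZ arrays were above all cerebellum arrays here too, with SVZ 1 by itself at the top. The difference of 1.44 ± 0.46 (SE) did not pass the test over every probe set (limma adjusted p = 0.103), in which 4.01% of probe sets were called.

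Some markers of other cell types were also called between SVZ and cerebellum, though most were not. Over all genes 1.03% were called higher and 4.47% lower in that comparison. The 11 measured microglial markers had mean levels of 3.39 to 6.66 over the SVZ arrays, 3.09 to 5.42 over the hippocampus arrays and 1.36 to 3.09 over the cerebellum arrays, and 4 of 11 were called higher in SVZ against cerebellum. Of 19 markers of transit amplifying cells and neuroblasts, 2 were called higher in the same comparison, and their mean level was 2.13 to 2.74 in SVZ, 1.97 to 2.81 in hippocampus and 1.82 to 2.16 in cerebellum. Those 2 were Stmn1, which destabilises microtubules, by 2.07 ± 0.34 (SE, limma adjusted p = 0.00249) and the transcription factor Sox4 by 1.51 ± 0.41 (SE, limma adjusted p = 0.0455). The 21 neuronal markers had mean levels of 1.55 to 1.82 in SVZ, 1.52 to 1.92 in hippocampus and 1.72 to 2.3 in cerebellum, and in SVZ against cerebellum none was called higher and 1 lower, Map2, with a difference of -1.03 (limma adjusted p = 0.0434). Of 11 oligodendrocyte markers none was called higher and 1 lower, Cnp, with a difference of -2.02 (limma adjusted p = 0.000315). Of 8 ependymal markers none was called by limma and 1 had an unadjusted p under 0.05, and their median difference was -0.98. Of 8 oligodendrocyte precursor markers 2 were called higher there, among them Olig1 by 4.52 ± 0.28 (SE, limma adjusted p = 5.11e-07), and their mean level was 1.86 to 2.59 in SVZ, 1.77 to 2.02 in hippocampus and 0.97 to 1.19 in cerebellum. Of 11 markers of endothelial cells and pericytes 2 were called higher, with mean levels of 2.54 to 4.84 in SVZ, 2.99 to 4.77 in hippocampus and 2.28 to 3.09 in cerebellum. No marker of these lists is listed at 0, but without a detection call a level above 0 does not show that a marker was present. In hippocampus against cerebellum 2 of 11 microglial and 1 of 8 oligodendrocyte precursor markers were called higher. So were 1 of 19 transit amplifying and neuroblast markers and 1 of 11 endothelial and pericyte markers. There 1 of 21 neuronal and 1 of 11 oligodendrocyte markers were called lower, and no ependymal marker was called. Over all genes 0.808% were called higher and 3.97% lower there. The part of these cells in the Miat differences from cerebellum was not tested.

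The 3 genes whose level over the 15 arrays was most like that of Miat were the proliferation marker Mki67 (Pearson r = 0.897), Stmn1 (r = 0.888) and the microglial gene Fcrls (r = 0.85), among 4812 genes with a mean above 3. The 15 arrays share the 3 regions, so a gene that differs between regions in the same way scores high.

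Kantr, the other RNA with a called difference, went the opposite way. Its chosen probe set 1428499_at read 5.12, 4.78, 5, 4.75 and 4.46 in SVZ, 6.37, 6.21, 6.21, 6.8 and 6.84 in hippocampus and 5.88, 6.1, 6.34, 6.12 and 6.31 in cerebellum. All SVZ arrays lay below all arrays of both other regions, which overlapped each other. Means were 4.82 ± 0.25 in SVZ, 6.49 ± 0.31 in hippocampus and 6.15 ± 0.19 in cerebellum (SD, n = 5 each). Kantr fell by 1.66 ± 0.18 (SE) in SVZ against hippocampus, a factor of 3.17 (limma adjusted p = 0.00335). Against cerebellum it fell by 1.33 ± 0.18 (SE), a factor of 2.51 (limma adjusted p = 0.000471). Over the 4816 genes with a mean above 3, to which Kantr belongs, the median difference from cerebellum was -0.72. With quantile normalization Kantr's difference from cerebellum was -0.93 (limma adjusted p = 0.0272). The marker differences given beside Miat between SVZ and cerebellum stand beside Kantr's difference from cerebellum too, and their part in it was not tested. Between SVZ and hippocampus limma called no marker of any cell type list, where 0.0165% of all genes were called higher and 0.0055% lower. An unadjusted p under 0.05 was reached there by 1 of 11 microglial, 2 of 11 oligodendrocyte and 2 of 8 ependymal markers. No other marker list had more than 1, and the share over all genes was 7.02%. Median differences were 1.11, -0.03 and -0.73 in the same order, against 0 over all genes. Of 15 astrocyte markers, with a median difference of 0.08, 1 had an unadjusted p under 0.05. It was Gfap, and the GFAP promoter drives the GFP used for sorting. Gfap averaged 4.51 ± 1.06 in SVZ and 6.93 ± 0.63 in hippocampus (SD, n = 5 each). Its difference was -2.42 ± 0.59 (SE, limma adjusted p = 0.364). The part of these markers in Kantr's difference from hippocampus was not tested.

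Arrays of SVZ and cerebellum did not overlap for Miat and Kantr, 2 of the 7, and the same held for 8.62% of all genes. Between SVZ and hippocampus Kantr was the 1 member without overlap, beside 0.813% of all genes. Kantr's difference from hippocampus keeps its size but misses the threshold with dim probe sets left out (adjusted p = 0.121), with a trended and robust spread (adjusted p = 0.37) or with only both regions in the fit (adjusted p = 0.154).

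The further probe sets of Kantr did not show the SVZ difference. Probe set 1441816_at read 3.88, 2.78, 4.32, 0.53 and 6.28 in SVZ, 3.98, 2.36, 6.01, 2.63 and 6.37 in hippocampus and 0.94, 2.54, 2.72, 2.12 and 1.33 in cerebellum. It varied by several units within SVZ and within hippocampus, and the regions overlapped. Its SVZ against hippocampus difference was -0.71 ± 0.99 (SE, limma adjusted p = 0.885) and its SVZ against cerebellum difference was 1.63 ± 0.99 (SE, limma adjusted p = 0.395). The remaining Kantr probe sets stayed at region means of 0.8 to 1.35. Averaged over all 4 probe sets, Kantr differed by 0.05 between SVZ and cerebellum (limma adjusted p = 0.936) and by -0.64 between SVZ and hippocampus (limma adjusted p = 0.685).

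**Figure D2:**
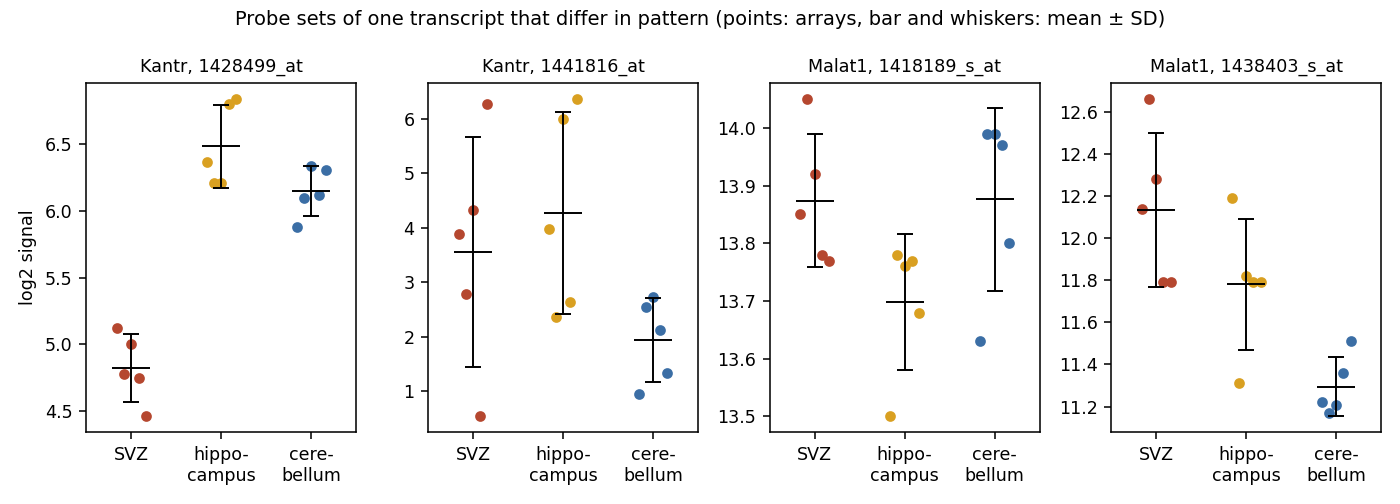
Log2 signal on every array for probe sets of one RNA that differ in what they show, SVZ left of hippocampus and cerebellum, with bar and whiskers for the mean ± SD. Kantr probe set 1428499_at separates SVZ from the other regions, and 1441816_at spreads over 0.53 to 6.28 in SVZ.

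The genes next to Kantr on the X chromosome were read beside it. Kdm5c averaged 2.68 ± 0.84 in SVZ, 3.02 ± 1.38 in hippocampus and 3.06 ± 0.6 in cerebellum, and Tspyl2, a nucleosome assembly family gene, 4.45 ± 0.89, 3.36 ± 0.57 and 3.16 ± 0.64 in the same order (SD, n = 5 each). Neither differed between SVZ and cerebellum by the test, with limma adjusted p = 0.73 for Kdm5c and 0.0999 for Tspyl2. Most like Kantr over the arrays were Thrsp (r = 0.887), a lipogenic gene, Atn1 (r = 0.863) and Hadhb (r = 0.819), an enzyme of mitochondrial fatty acid oxidation.

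Meg3 and Rian, the imprinted pair from chromosome 12, passed no test on their chosen probe sets. The first of 2 Meg3 windows in the table is printed because it holds a GLI core, the letters read by the Shh effector family to which Gli1 belongs.
Meg3, chr12:109540746-109541045, plus strand: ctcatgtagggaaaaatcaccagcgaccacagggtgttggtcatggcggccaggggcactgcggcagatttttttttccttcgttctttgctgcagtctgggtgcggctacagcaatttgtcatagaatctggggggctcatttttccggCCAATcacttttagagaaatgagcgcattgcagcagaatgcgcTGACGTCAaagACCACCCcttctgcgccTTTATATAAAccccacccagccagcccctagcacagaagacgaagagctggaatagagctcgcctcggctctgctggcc
The GLI core lies at -46 from the start, and the second window holds 1 as well. CRE cores on opposite strands overlap at -57 and -54, TATA boxes on opposite strands overlap at -29 and -25, and a CCAAT box lies at -100. A GLI core was found in 4.61% and a TATA box in 13.6% of all promoters in the table.

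Meg3 probe set 1439380_x_at read 6.04, 3.11, 2.35, 4.24 and 3.7 in SVZ, 1.49, 2.44, 1.32, 2.07 and 1.58 in hippocampus and 2.96, 2.06, 1.33, 1.62 and 1.77 in cerebellum. SVZ 1 stood highest and SVZ 3 fell inside the range of both other regions. The _x_ in its name marks probes that may also match other transcripts. Means were 3.89 ± 1.39 in SVZ, 1.78 ± 0.46 in hippocampus and 1.95 ± 0.62 in cerebellum (SD, n = 5 each). The SVZ against cerebellum difference of 1.94 ± 0.55 (SE) lay just outside the threshold (limma adjusted p = 0.0542), and it was 1.4 without SVZ 1 (limma adjusted p = 0.0678). It passed in 6 of 26 alternatives. SVZ against hippocampus gave 2.11 ± 0.55 (SE, limma adjusted p = 0.415). That value meets the study's rule of 4-fold, beside 0.357% of all genes, while hippocampus against cerebellum gave -0.17 ± 0.55 (SE, limma adjusted p = 0.873).

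All 10 further Meg3 probe sets had a positive SVZ against cerebellum difference, of 0.14 to 1.14, and 1 passed the test, beside 4.01% of all probe sets. The share of positive differences over all probe sets was not counted, and array medians were also higher in SVZ than in cerebellum. On 1452905_at and 1428765_at SVZ 1 stood apart from the other SVZ arrays, at 4.52 and 4.74. Probe set 1452183_a_at read 1.17, 2.57, 2.21, 2 and 2.52 in SVZ, 1.76, 1.44, 1.62, 2.13 and 1.81 in hippocampus and 1.55, 1.02, 0.99, 0.86 and 0.88 in cerebellum. SVZ 1, the highest array on the chosen probe set, was the lowest SVZ array here. It rose by 1.03 ± 0.24 (SE, limma adjusted p = 0.0296) in SVZ against cerebellum. None of the 11 Meg3 probe sets had a mean above 3 over the 15 arrays. The further ones averaged at most 2.18 in SVZ, so theirs are differences near the level of most probe sets. The chosen one averaged 3.89 in SVZ and reached 6.04 there. Most like Meg3 over the 15 arrays were 5031439G07Rik (r = 0.816), the Notch coactivator Maml2 (r = 0.81) and the RNA helicase Ddx54 (r = 0.799).

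Rian read 2.05, 3.28, 2.06, 1.63 and 1.6 in SVZ, 1.44, 2.62, 3.17, 4.15 and 1.73 in hippocampus and 2.83, 2.27, 1.85, 1.9 and 2.78 in cerebellum. The 3 regions overlapped throughout. Its means were 2.12 ± 0.68, 2.62 ± 1.1 and 2.33 ± 0.47 in the same order (SD, n = 5 each), and the differences were -0.2 in SVZ against cerebellum (limma adjusted p = 0.827), 0.3 in hippocampus against cerebellum (0.734) and -0.5 in SVZ against hippocampus (0.827). Its 3 further probe sets had means of 0.73 to 1.45 over the arrays, with 1 reading of 5.39 on SVZ 4. Of the other 7 genes listed for the domain, 3 had a probe set, Dlk1, Mirg and Dio3os. None of them had a mean above 3 and none was called by limma in any comparison, with 1, 0 and 0 at an unadjusted p under 0.05. Most like Rian were Zfp369 (r = 0.878), Dele1 (r = 0.828) and Zfp3 (r = 0.803). Dlk1, a paternally expressed Notch ligand relative, averaged 1.55 ± 0.42 in SVZ, 1.37 ± 0.37 in hippocampus and 1.06 ± 0.17 in cerebellum (SD, n = 5 each).

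Malat1 differed little on its chosen probe set, while 1 further probe set was called. 1418189_s_at read 13.85, 14.05, 13.92, 13.78 and 13.77 in SVZ, 13.5, 13.78, 13.76, 13.77 and 13.68 in hippocampus and 13.63, 13.99, 13.99, 13.97 and 13.8 in cerebellum. The regions overlapped, and all 15 values lay close to the array maxima of 14.97 to 15.08. Means were 13.87 ± 0.12 in SVZ, 13.7 ± 0.12 in hippocampus and 13.88 ± 0.16 in cerebellum (SD, n = 5 each). The SVZ against cerebellum difference was 0 ± 0.12 (SE, limma adjusted p = 0.994), with a 95% interval of -0.26 to 0.26.

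Other Malat1 probe sets did not all show the same. Probe set 1438403_s_at read 12.14, 12.66, 12.28, 11.79 and 11.79 in SVZ, 12.19, 11.31, 11.82, 11.79 and 11.79 in hippocampus and 11.22, 11.17, 11.21, 11.36 and 11.51 in cerebellum. Every SVZ array lay above every cerebellum array, and it rose by 0.84 ± 0.19 (SE, limma adjusted p = 0.0222), beside 4.01% of every probe set called. Every SVZ array also lay above every cerebellum array on 1427285_s_at, which was not called (0.86 ± 0.26 SE, limma adjusted p = 0.0892). Arrays of these regions did not overlap for 8.62% of all genes. The 5 further probe sets other than 1438403_s_at gave SVZ against cerebellum differences of -0.19 to 1 without passing the test. Of these 1436202_at was the largest (1 ± 0.31 SE, limma adjusted p = 0.0964). In hippocampus against cerebellum none of the 7 was called, beside 3.39% of every probe set, nor in SVZ against hippocampus, beside 0.00666%. Most like the chosen Malat1 probe set over the arrays were Zcchc8 (r = 0.813), Tmem38a (r = 0.791) and Tial1 (r = 0.781), an RNA-binding protein.

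**Figure D3:**
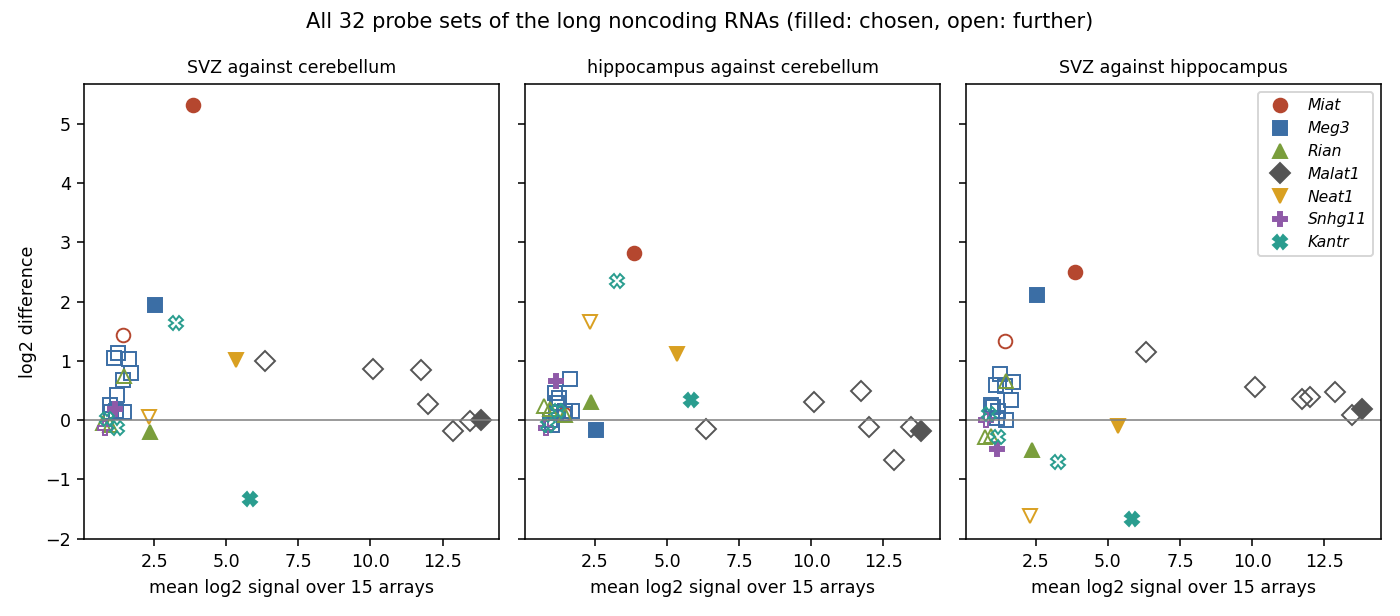
Log2 difference of each of the 32 probe sets of the 7 RNAs (vertical axis) by its mean log2 signal over the 15 arrays (horizontal axis), in SVZ against cerebellum, hippocampus against cerebellum and SVZ against hippocampus, with chosen probe sets filled and further ones open. Meg3 probe sets lie on 1 side of 0 in SVZ against cerebellum, and Kantr and Malat1 probe sets lie on both.

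Neat1 lies next to Malat1 on chromosome 19. It read 4.7, 7.03, 6.01, 4.43 and 6.05 in SVZ, 6.63, 5.84, 5.71, 5.24 and 5.3 in hippocampus and 4.61, 4.54, 4.85, 4.51 and 4.65 in cerebellum. All hippocampus arrays lay above all cerebellum arrays, while SVZ 4 and SVZ 1 fell within or below the cerebellum range. Means were 5.64 ± 1.07 in SVZ, 5.74 ± 0.56 in hippocampus and 4.63 ± 0.13 in cerebellum (SD, n = 5 each). Differences of 1.01 ± 0.42 (SE) in SVZ against cerebellum (limma adjusted p = 0.188) and 1.11 ± 0.42 (SE) in hippocampus against cerebellum (limma adjusted p = 0.159) did not pass. With only both regions in the fit, the hippocampus difference passed (limma adjusted p = 0.0298). Miat and Neat1 were the 2 members without overlap between hippocampus and cerebellum, beside 7.98% of all genes.

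The further Neat1 probe set, 1442881_at, read 1.93, 2.94, 1.82, 1.26 and 1.01 in SVZ, 5.46, 1.6, 2.1, 3.47 and 4.37 in hippocampus and 1.45, 1.52, 1.88, 1.92 and 1.92 in cerebellum. Hippocampus 1, 4 and 5 stood above all arrays of the other regions, and hippocampus 2 and 3 did not. Its hippocampus against cerebellum difference of 1.66 ± 0.6 (SE) was not called (limma adjusted p = 0.163). Most like Neat1 were Utp14b (r = 0.819), the cytokine gene Il18 (r = 0.809) and Nav2 (r = 0.799).

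Proteins of the nuclear bodies that hold Neat1 and Malat1 were counted beside them. Of 19 measured paraspeckle and speckle proteins, 1 was called lower in SVZ against cerebellum and none higher, while 4.47% of all genes were called lower. That gene was Nudt21, a subunit of the cleavage factor for 3′ ends of RNA, which averaged 3.65 ± 0.78 in SVZ and 5.36 ± 0.32 in cerebellum (SD, n = 5 each, limma adjusted p = 0.0182). In hippocampus against cerebellum, Qk fell by 1.07 ± 0.26 (SE, limma adjusted p = 0.0292) and Hnrnpk fell by 1.04 ± 0.28 (SE, limma adjusted p = 0.0484), both RNA-binding proteins. Over all genes 3.97% were called lower in hippocampus against cerebellum. None of the 19 was called in SVZ against hippocampus, where 1 had an unadjusted p under 0.05, as did 7.02% of all genes. The list's median difference was -0.45, -0.43 and 0.1 in the 3 comparisons, against 0.07, 0.07 and 0 over all genes. Of the 19 proteins 18 had a mean above 3, and over the 4816 genes with a mean above 3 the medians were -0.72, -0.7 and 0.06.

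Snhg11 stayed near the array medians. Its chosen probe set read 0.81, 1.26, 0.97, 1.02 and 1.16 in SVZ, 2, 0.86, 1.85, 1.94 and 0.96 in hippocampus and 0.97, 0.97, 0.93, 0.81 and 0.61 in cerebellum. Hippocampus 1, 3 and 4 were higher than every other array. The hippocampus against cerebellum difference of 0.66 ± 0.23 (SE) did not pass (limma adjusted p = 0.115), and it was 0.83 without hippocampus 2 (limma adjusted p = 0.0314). The further probe set averaged 0.78 over the arrays. Most like Snhg11 were Slc25a34 (r = 0.859), Sfi1 (r = 0.801) and Dido1 (r = 0.78). No neighbour of the 7 RNAs that is not itself a member was called in any comparison. Among them, Ltbp3 beside Malat1 averaged 5.46 ± 0.93 in SVZ, 6.9 ± 0.24 in hippocampus and 5.79 ± 1.23 in cerebellum (SD, n = 5 each).

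**Figure D4:**
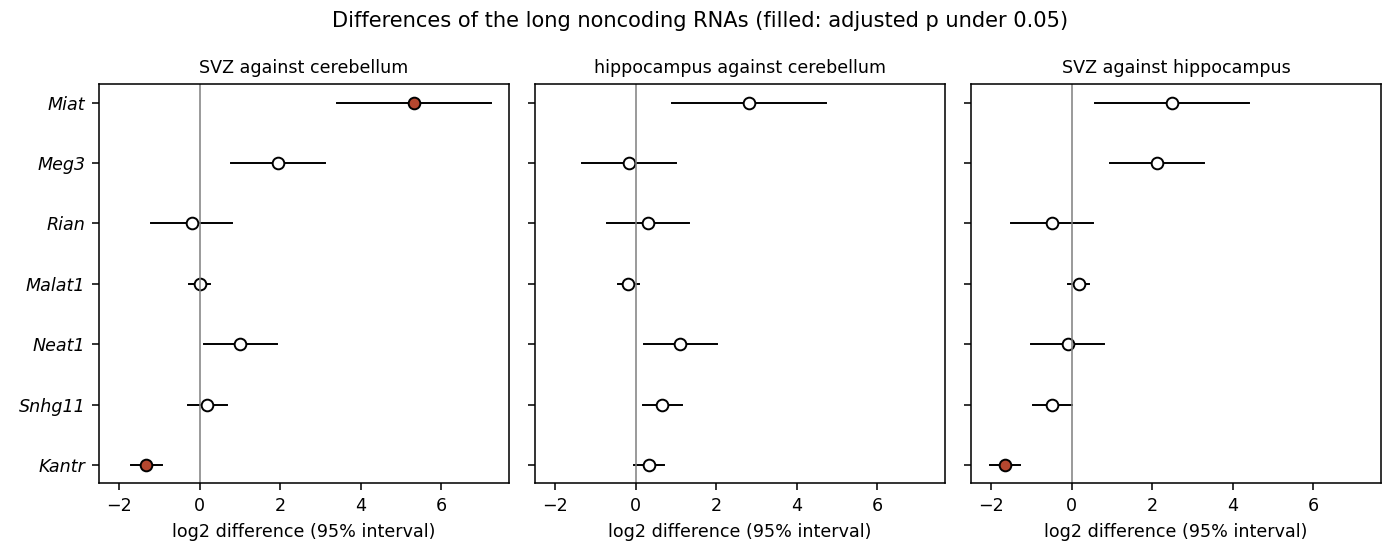
Log2 difference of each chosen probe set with its 95% interval in SVZ against cerebellum, hippocampus against cerebellum and SVZ against hippocampus. Miat has the widest interval, 3.4 to 7.22 in SVZ against cerebellum, and Malat1 the narrowest, -0.26 to 0.26.

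Whether members vary together between pools of one region was asked next, over 15 arrays. For the 21 pairs of members, Pearson correlations of deviations from the region means ran from -0.59 to 0.35. None reached an unadjusted p under 0.05 in the two-sided permutation test with 100000 resamples. The strongest was Meg3 with Neat1, with r = -0.59 (permutation p = 0.129, adjusted 0.822) and rho = -0.56 (permutation p = 0.0808, adjusted 0.729), and r = -0.49 without the 2 arrays farthest from the median. Meg3 and Rian, transcribed from one domain, had r = 0.06 and rho = 0.08.

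Most of the other long noncoding RNAs that were listed also showed no called difference. Of 59 listed, 45 had a probe set and 13 of these a mean above 3 over the arrays. In SVZ against cerebellum 2 were called lower and none higher, Norad, which sequesters Pumilio proteins, and Oip5os1, also known as Cyrano, while 4.47% of all genes were called lower. Norad averaged 6.87 ± 0.63 in SVZ and 8.55 ± 0.41 in cerebellum (SD, n = 5 each, limma adjusted p = 0.0118), and Oip5os1 averaged 2.64 ± 0.8 in SVZ and 4.27 ± 0.44 in cerebellum (SD, n = 5 each, limma adjusted p = 0.0183). In hippocampus against cerebellum Norad fell by 1.52 ± 0.35 (SE, limma adjusted p = 0.0221) and Emx2os, antisense to the forebrain factor Emx2, rose by 1.48 ± 0.39 (SE, limma adjusted p = 0.044). Over all genes 3.97% were called lower and 0.808% higher in hippocampus against cerebellum. None of the 45 was called in SVZ against hippocampus, where 4 had an unadjusted p under 0.05, as did 7.02% of all genes. The median differences of the 45 were 0.14, 0.14 and 0.02 in the 3 comparisons, against 0.07, 0.07 and 0 over all genes.

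**Figure D5:**
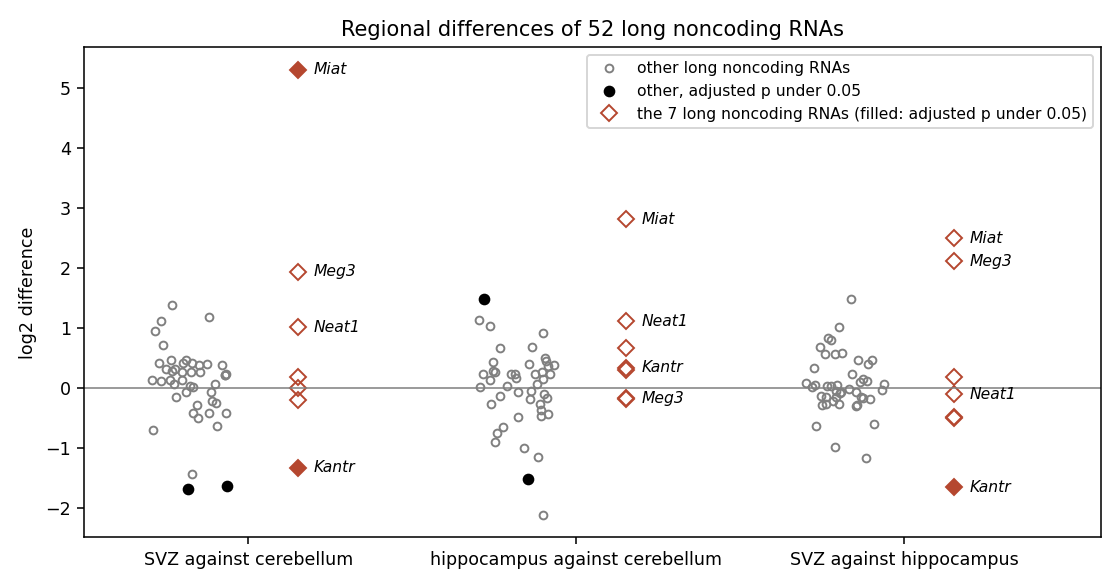
Log2 differences of 45 other long noncoding RNAs beside the 7 members in SVZ against cerebellum, hippocampus against cerebellum and SVZ against hippocampus, called ones marked. Norad lies at -1.68 and -1.52 in the comparisons with cerebellum.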

How the data were processed

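RNA of sorted Gli1+ GFAP+ cells was amplified, labelled and hybridised to 15 Affymetrix arrays, 5 per region. The deposited values are log2 signals that the authors made with RMA, per the submitters' processing notes. Its version was not given in the sources used here, nor was the log base, which was inferred from array maxima of 14.97 to 15.08. The series matrix holds 45101 probe sets. Of these, 34958 carry 1 gene symbol, 932 several and 9211 none, and symbols were updated through RefSeq. Each of 18193 genes was represented by its probe set of highest mean level.

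Differences were fitted with limma 3.58.1 in R 4.3.3 over all 15 arrays with region as the only term. P-values were adjusted by Benjamini-Hochberg over all genes, or over 45037 probe sets without controls for the further ones. The fit was also run on simulated data that gave a gene the same spread in every region. That run does not cover the unequal spread between the regions here. The labels do not say that the pools were prepared on separate days, so p-values measure the spread between these pools.

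The members and gene lists were chosen with earlier results of these data known. All 7 members are named, with the 2 largest called differences each way of a list, or its 2 smallest p-values where none was called, the 3 genes most like a member, and its neighbours with a probe set. Not every gene so selected is printed. Alternatives were a replicate block, quantile normalization, median centring, dim probe sets left out (mean of 3 or less), the mean of all probe sets, a spike-in covariate, only both regions in the fit, a trended and robust spread, array weights and arrays left out. The number of arrays limits the precision.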

Additional observations from a re-analysis of the deposited data

Results flagged for a closer look

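Within a region's 5 arrays, 1 array stood apart from the others on 14 of 96 probe set and region combinations, 14.6%, where chance flags about 1 in 20 groups. SVZ 2 accounted for 5 of them, cerebellum 1 for 3, SVZ 1 and SVZ 4 for 2 each, and hippocampus 2 and hippocampus 4 for 1 each. Probe sets of 1 gene share their RNA, so these are not independent.

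For Meg3, SVZ 1 read 4.52 on 1452905_at, where the nearest SVZ array read 1.61, and 4.74 on 1428765_at, where the nearest read 1.02. SVZ 2 read 3.54 on 1436713_s_at, with the nearest at 1.65. Hippocampus 4 read 2.17 on 1426758_s_at, with the nearest at 1.44, and hippocampus 2 read 1.46 on 1429256_at, with the nearest at 1.13. Cerebellum 1 read 1.55 on 1452183_a_at, with the nearest at 1.02.

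For Rian, SVZ 2 read 3.28 on the chosen probe set, with the nearest at 2.06, SVZ 4 read 5.39 on 1427580_a_at, with the nearest at 1.25, and cerebellum 1 read 1.9 on 1440001_at, with the nearest at 0.8. For Malat1, SVZ 2 was highest on 3 probe sets, at 13.8 on 1418188_a_at, 13.24 on 1452378_at and 11.38 on 1427285_s_at, with the nearest arrays at 13.43, 12.14 and 10.43. Cerebellum 1 was lowest on 1429060_at at 12.61, with the nearest at 13.23. For Kantr, SVZ 4 was lowest on 1438575_a_at at 0.67, with the nearest at 1.13.

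Kantr's difference from cerebellum was not the same in both forebrain regions. The test of that difference is SVZ against hippocampus, which gave -1.66 (limma adjusted p = 0.00335).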

How the results depend on the processing

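Of 558 single-member values under an alternative, 516 kept their direction and their side of the threshold. Of the rest, 4 lost a call with the sign kept, 12 gained one and 26 changed sign. Miat in SVZ against cerebellum kept its call in all 27 alternatives, with adjusted p between 0.000154 and 0.0353, and Kantr in 26 of 27. With the mean of all probe sets Kantr's SVZ against cerebellum difference changed sign to 0.05 and lost its call (limma adjusted p = 0.936). It is counted among the 26 sign changes and not among the 4 lost calls. Kantr in SVZ against hippocampus lost its call in 4: it stayed at -1.66 with dim probe sets left out (adjusted p = 0.121), with a trended and robust spread (0.37) and with only both regions in the fit (0.154), and was -0.64 with the mean of all probe sets (0.685). The cause was not tested beyond what each setting does by construction.

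The count of members called in SVZ against cerebellum, 2, became 4 with array weights, 1 by the 4-fold rule, 3 with the replicate block and 2 to 3 over the fits that left out 1 array each (3 without SVZ 2, SVZ 3 or cerebellum 1, where Meg3 also passed). With the mean of all probe sets it stayed at 2, but these were Miat and Meg3, both higher. In hippocampus against cerebellum the count of 0 became 1 through Miat with dim probe sets left out, the mean of all probe sets, array weights and the 4-fold rule, and through Neat1 with only both regions in the fit. It was 0 to 1 over the fits that left out 1 array each, 1 being Snhg11 without hippocampus 2. In SVZ against hippocampus the count of 1 became 0 with the 4 settings that ended Kantr's call. Of the other long noncoding RNAs, 2 were called in SVZ against cerebellum. That count was 4 with array weights, 1 with quantile normalization and with a trended and robust spread, and 0 when cerebellum 4 and 5 were left out or spike-in level was a covariate. In hippocampus against cerebellum, 2 were called, against 1 with the replicate block, dim probe sets left out, every probe set tested, only both regions in the fit and without SVZ 1 and hippocampus 3. It was 0 with quantile normalization, when spike-in level was a covariate or when cerebellum 4 and 5 were left out, and 0 to 2 over the fits that left out 1 array each.

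Signs changed for values near 0, apart from Kantr's in SVZ against cerebellum, which went from -1.33 to 0.05 with the mean of all probe sets. In SVZ against cerebellum, Rian gave 0.05 with quantile normalization, 0.1 with the mean of probe sets, 0 with array weights and 0.05 with the spike-in covariate. Malat1 gave 0.19, 0.39, 0.01 and 0.13 under the same settings, -0.06 to 0.03 over the fits that left out 1 array each, and 0 without SVZ 1 and hippocampus 3 and without cerebellum 4 and 5. Snhg11 gave -0.05 with the spike-in covariate. In hippocampus against cerebellum, Meg3 gave 0.19 with the mean of probe sets and -0.33 to 0.08 leaving out 1 array each, and Rian -0.09 to 0.59. In SVZ against hippocampus, Neat1 gave 0.23 with array weights, -0.45 to 0.2 leaving out 1 array each and 0.13 without SVZ 1 and hippocampus 3.

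The labels do not say whether equal replicate numbers pair the arrays, and the correlations cannot settle it. Of 15 same-numbered pairs 3 correlated above 0.1, over -0.12 to 0.14, while differently numbered pairs ran from -0.18 to 0.39. With the number as a replicate block Meg3 in SVZ against cerebellum passed (adjusted p = 0.0391). Median centring moved the median of all genes to -0.04, against 0.07, in hippocampus against cerebellum and to -0.03, against 0.07, in SVZ against cerebellum. Over the 4816 genes left when dim probe sets were left out, the median was -0.7 and -0.72 in these comparisons.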
